A study of Mus musculus with 5 samples.

Results

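Chaperonin and heat shock protein genes were followed through immunoprecipitates of the RNA binding protein AUF1. They are 40 mouse genes from the main chaperone families, chosen with earlier results of these data known. Of them 38 had at least 1 microarray probe set annotated to them alone. These 38 genes are covered by 105 probe sets, out of 18194 genes measured in the same way. Hsp90ab1 and Hsf1 had no probe set of their own and are not described. Where a gene had several probe sets, the one with the highest mean signal over all arrays stood for the gene, and further probe sets are given beside it for Cct4, Dnajb4 and Fkbp7 and for a selection of the other genes.

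The RNA came from NIH/3T3 cells, a mouse fibroblast line, which all carried pBSwitch together with pSLHGC-MYC-AUF1 p42, a retroviral pair for mifepristone-inducible expression of AUF1 p42 with a myc tag. According to the study's methods all infected cells had been selected with blasticidin while mifepristone was present. Ribonucleoprotein immunoprecipitates (RNP-IPs) were prepared with anti-myc beads, 2 labelled as induced (1 nM mifepristone for 24 h), 2 labelled as uninduced from the same kind of cells, and 1 further array was hybridized with total RNA of cells carrying the vectors. The sources used here do not say whether the cells of the total RNA had been induced. Signals are log2 values from Affymetrix Mouse 430 2.0 arrays, normalized by the authors with robust multiarray average (RMA), so a difference of 1 is a doubling. Paired values of a group are its replicates 1 and 2.

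Chaperones bind unfolded or partly folded proteins and help them reach their final shape. The chaperonin CCT, also called TRiC, is a double ring of related subunits that encloses actin, tubulin and other cytosolic proteins, and HSP60 with HSP10 forms the corresponding cage in mitochondria. HSP70 proteins bind short exposed segments, J-domain proteins (HSP40) deliver clients to them and stimulate their ATPase, and HSP90 acts later, on receptors and kinases. Small heat shock proteins hold unfolded clients, and heat shock factors switch on many of these genes under stress. AUF1, the product of Hnrnpd, binds AU-rich elements in 3' untranslated regions and influences the decay of mRNAs.

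Hnrnpd itself is given on only 1 probe set, and no other probe set of this gene is described. It gave 6.72 and 7.39 in the induced-labelled RNP-IPs, 11.35 and 11.85 in the uninduced-labelled ones and 10.60 in total RNA. The direction is opposite to what an induced vector would give if these probes detect it. The place of the probes relative to the vector's sequence is not given. In the RNP-IPs the Hnrnpd signal is that of precipitated RNA and does not measure expression in the cells. From this signal alone it cannot be told which RNP-IPs had been induced. The arrays are called by their labels throughout, and each direction below rests on those labels. The arrays differed in the signal of control transcripts. Gapdh 5' probes gave 8.18 and 4.24 in the induced-labelled RNP-IPs, 3.65 and 7.81 in the uninduced-labelled ones and 6.93 in total RNA, so that induced 2 and uninduced 1 were low. The same arrays were low on Gapdh 3' probes, with 11.9 and 9.71 in the induced-labelled RNP-IPs, 9.7 and 12.11 in the uninduced-labelled ones and 12.32 in total RNA. They were low on the middle probes of Gapdh as well, so the low signal was not confined to the 5' end. All 8 fibroblast genes were above log2 5 on every array, while of 14 measured markers of epithelial, blood, endothelial and neural cells 12 were below log2 5 on every array. No total extract was measured for each RNP-IP, so a higher mRNA level in the cells and a better recovery on the beads cannot be told apart. Nothing in the sources used here says whether the RNP-IPs of a group came from separate cultures, and p-values measure only the spread between these arrays.

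Most chaperone genes gave similar normalized signals in the induced-labelled RNP-IPs and in the 3 controls (2 uninduced-labelled RNP-IPs and total RNA). According to the study's methods an equal mass of RNA was labelled from each sample, and control RNP-IPs held RNA at a lower concentration. A similar signal is therefore a similar share of the labelled RNA, and amounts recovered on the beads are not compared. Of the 38 genes 31 differed by less than 2-fold, a share not given here for all genes. The median difference was -0.10 on the log2 scale, against 0.00 over all genes. A gene was called at a difference of at least 3-fold and an adjusted p under 0.5, a lenient limit. Only Fkbp7 was called higher by this rule, where 1.32% of all 18194 genes were, and no chaperone gene was called lower, where 2.36% of all genes were. At an unadjusted p under 0.05 there were 4 chaperone genes in limma, against 13.4% of all genes, and 0 at an adjusted p under 0.05, which no gene of the array reached. Both induced-labelled RNP-IPs lay above all 3 controls for 4 of the 38 genes, against 12% of all genes, and below all 3 for 5 of them, against 13.4% of all genes.

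**Figure D1:**
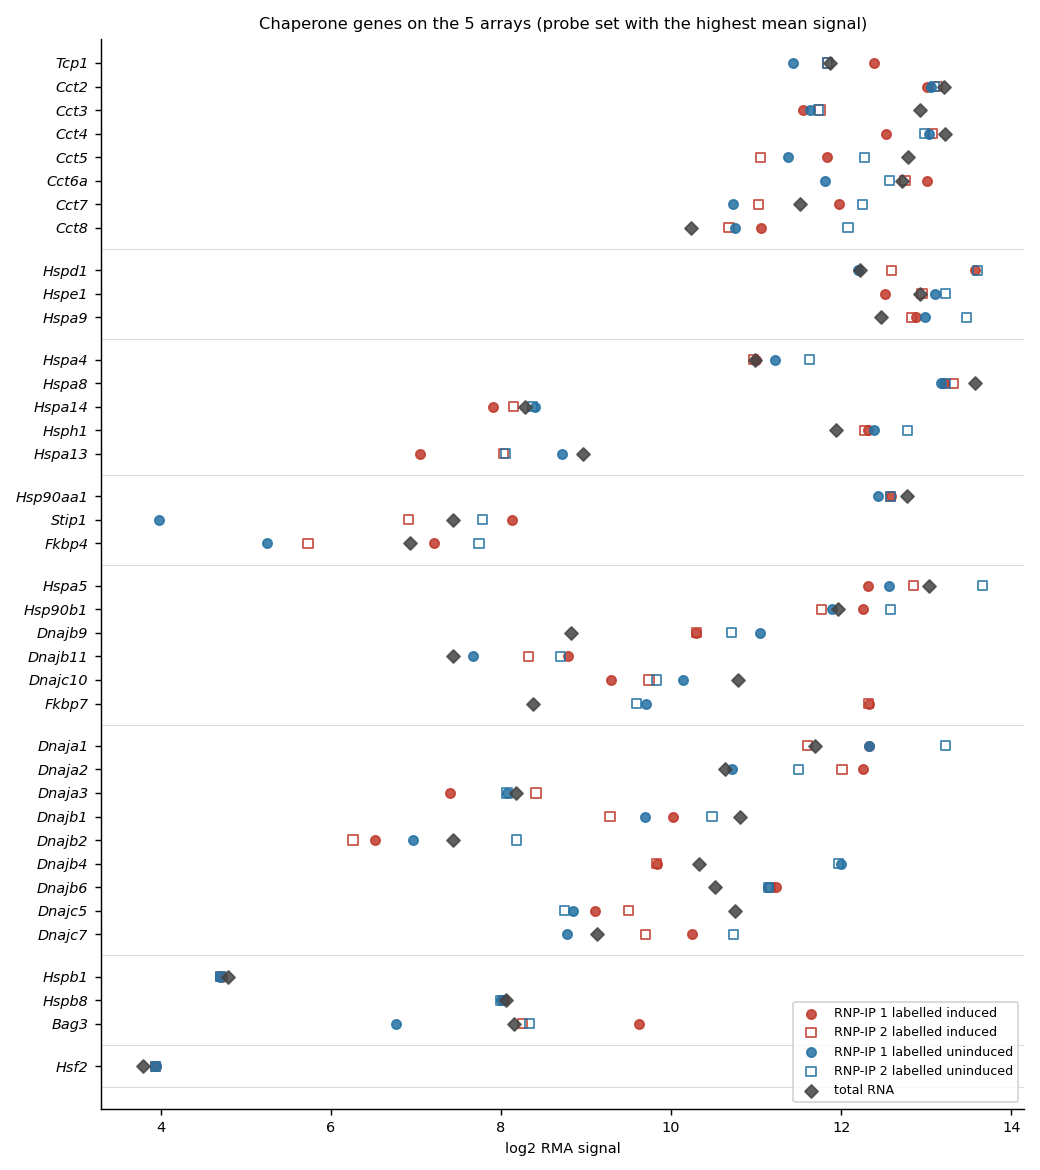
Log2 RMA signal (horizontal axis) of the 38 measured chaperone genes on the 5 arrays, 1 gene to a line, each on its brightest probe set. From the top, the blocks are CCT subunits, mitochondrial chaperonin and HSP70, other HSP70 and HSP110, HSP90 and cochaperones, chaperones of the endoplasmic reticulum, other J-domain proteins, small heat shock proteins with Bag3, and Hsf2. Fkbp7 is the gene with both red points (labelled induced) far to the right of the other 3, and Dnajb4 the one with both blue points (labelled uninduced) to the right.

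The 3 controls are not alike, and the comparison was therefore divided into steps with a fit that keeps the groups apart. The induced-labelled RNP-IPs against the uninduced-labelled ones gave 1 gene higher, Fkbp7, and 1 lower, Dnajb4, while 1.38% and 2.65% of all genes were called higher and lower. The uninduced-labelled RNP-IPs against total RNA gave 2 genes higher, Dnajb4 and Dnajb9, and 1 lower, Dnajc5, against 1.26% and 1.36% of all genes. For the induced-labelled RNP-IPs against total RNA, 1 gene was higher, again Fkbp7, and 0 were lower, against 2.03% and 4.5% of all genes. The median of the 38 genes was -0.02, 0.03 and -0.02 in these 3 comparisons, which share arrays, against 0.00 over all genes in each. Comparisons with total RNA rest on 1 array, whose spread is assumed to be that of the RNP-IPs.

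**Figure D2:**
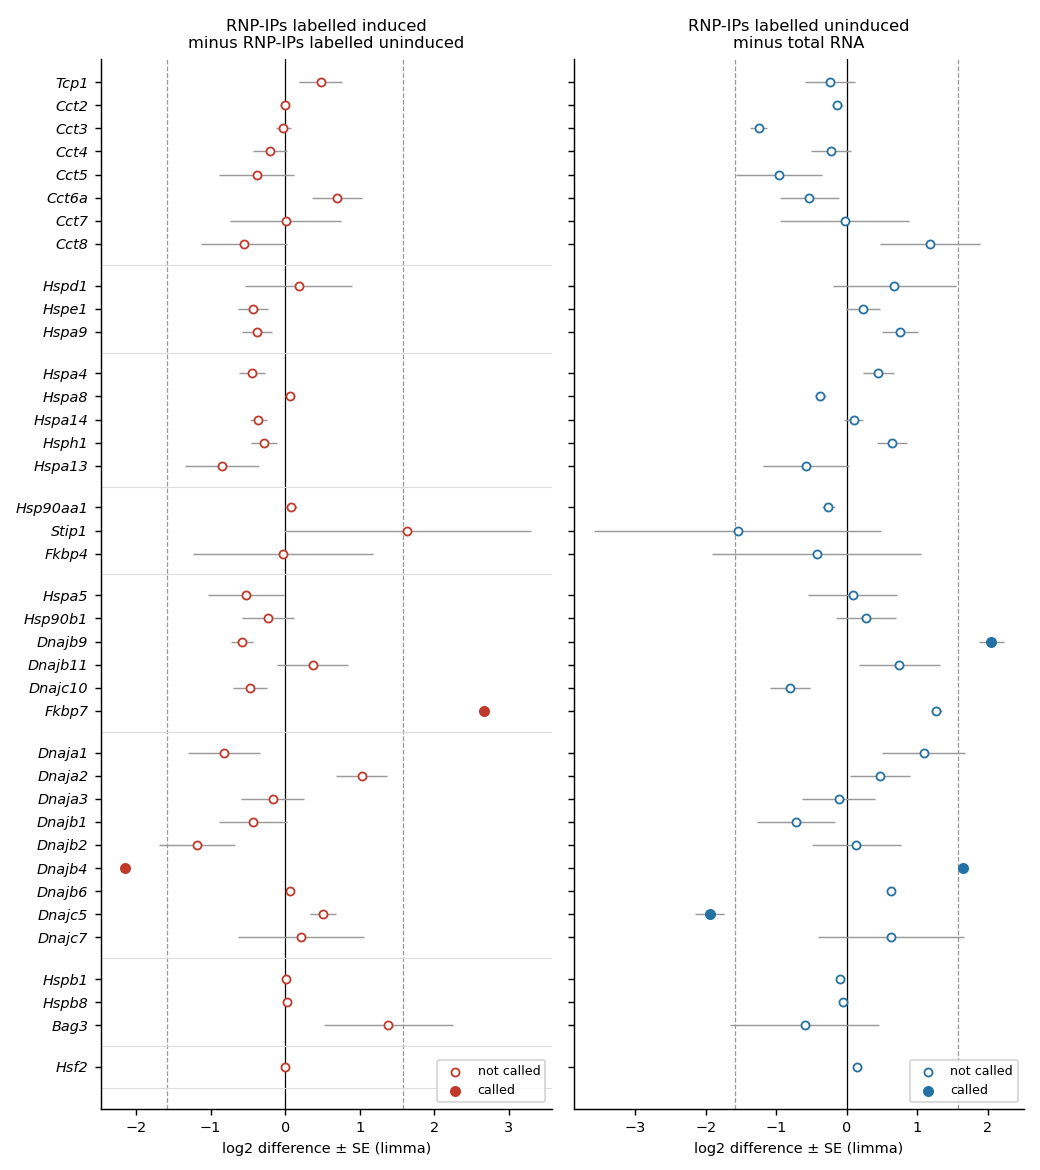
Log2 difference with its standard error (limma, horizontal axes) of each chaperone gene for the induced-labelled RNP-IPs minus the uninduced-labelled ones (left) and for the uninduced-labelled RNP-IPs minus total RNA (right), with the genes in the same order as in the plot of signals by array. Dashed lines mark a 3-fold difference and filled points are called, Fkbp7 at 2.67 and Dnajb4 at -2.15 on the left, Dnajb9 at 2.05, Dnajb4 at 1.65 and Dnajc5 at -1.95 on the right.

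Fkbp7, a peptidyl-prolyl isomerase of the endoplasmic reticulum (ER) known to bind the ER chaperone BiP, had the largest difference from the 3 controls among the 38 genes. Its probe set 1416803_at gave 12.33 and 12.32 in the induced-labelled RNP-IPs, 9.71 and 9.59 in the uninduced-labelled ones and 8.38 in total RNA. Both induced-labelled RNP-IPs were far above every control, and the uninduced-labelled RNP-IPs were in turn above total RNA. The difference from the 3 controls was 3.10 on the log2 scale (SE 0.48, adjusted p = 0.164 in limma). Against the uninduced-labelled RNP-IPs alone it was 2.67 (adjusted p = 0.118), and against total RNA 3.94 (adjusted p = 0.0912). The step between the uninduced-labelled RNP-IPs and total RNA was 1.27, which is below 3-fold and was not called. A further probe set of Fkbp7, 1446078_at, was near background, between 3.53 and 3.78 on all arrays, where no difference can be read.

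The other ER chaperones did not follow Fkbp7. Dnajb9, a J-domain cochaperone that restrains the stress sensor IRE1, had 10.29 and 10.30 in the induced-labelled RNP-IPs, 11.04 and 10.71 in the uninduced-labelled ones and 8.82 in total RNA. All 4 RNP-IPs were thus above total RNA, and the uninduced-labelled ones were the highest. The uninduced-labelled RNP-IPs exceeded total RNA by 2.05 (SE 0.18, adjusted p = 0.185 in limma), whereas the induced-labelled RNP-IPs differed from the uninduced-labelled ones by -0.58 (adjusted p = 0.355). Hspa5, which encodes BiP, had 12.31 and 12.85 in the induced-labelled RNP-IPs, 12.56 and 13.66 in the uninduced-labelled ones and 13.03 in total RNA, with overlapping groups. Hsp90b1, the HSP90 of the ER, and Dnajb11, a cochaperone of BiP, differed from the 3 controls by -0.14 and 0.62 and overlapped as well. The second probe set of Hsp90b1, 1438040_a_at, gave -1.52 with a wide spread (SE 0.98, adjusted p = 0.684), at 8.05 and 5.92 in the induced-labelled RNP-IPs, 7.94 and 9.74 in the uninduced-labelled ones and 7.82 in total RNA. Dnajc10, a disulfide reductase with a J domain, was lowest in the induced-labelled RNP-IPs, with 9.29 and 9.74, against 10.14 and 9.83 in the uninduced-labelled ones and 10.79 in total RNA, and the difference of -0.74 was not called (adjusted p = 0.628). On a second probe set of Dnajc10, 1426904_s_at, the contrast was between RNP-IPs and total RNA. It gave 8.24 and 7.98 in the induced-labelled RNP-IPs, 7.86 and 7.95 in the uninduced-labelled ones and 9.79 in total RNA. There the uninduced-labelled RNP-IPs were below total RNA by a called difference of -1.88 (adjusted p = 0.181), and the induced-labelled ones by one of -1.68 (adjusted p = 0.120).

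None of the 8 CCT subunit genes was called on its representative probe set in any of the 4 comparisons. Their differences between the induced-labelled RNP-IPs and the 3 controls ran from -0.70 for Cct5 to 0.52 for Cct6a, with a median of -0.10. Cct6a had 13.01 and 12.75 in the induced-labelled RNP-IPs, 11.81 and 12.57 in the uninduced-labelled ones and 12.72 in total RNA. Both induced-labelled RNP-IPs were above the controls there, but by 0.03 at the closest (adjusted p = 0.684), too little to separate the groups. Cct5 had 11.83 and 11.05 in the induced-labelled RNP-IPs, 11.37 and 12.27 in the uninduced-labelled ones and 12.78 in total RNA, with overlap between both kinds of RNP-IP. Cct2 was the most even subunit, between 13.01 and 13.21 on all 5 arrays. Cct3 stood apart in another respect, with 11.55 and 11.75 in the induced-labelled RNP-IPs, 11.63 and 11.73 in the uninduced-labelled ones and 12.93 in total RNA. On this brightest probe set the 4 RNP-IPs of Cct3 were level and more than 2-fold below total RNA. The uninduced-labelled ones were at -1.25 (adjusted p = 0.199 in limma), which did not reach 3-fold. Probe sets 1416024_x_at and 1426067_x_at gave less, -0.80 and -0.51. On 1459987_s_at the difference was -1.71 and not called, with uneven RNP-IPs between 9.85 and 11.42. Cct8 was lowest in total RNA, with 11.06 and 10.68 in the induced-labelled RNP-IPs, 10.75 and 12.08 in the uninduced-labelled ones and 10.23 in total RNA.

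Cct4, which encodes the delta subunit of CCT, gave different answers from its 7 probe sets. The brightest of them, 1433447_x_at, had 12.53 and 13.07 in the induced-labelled RNP-IPs, 13.03 and 12.98 in the uninduced-labelled ones and 13.22 in total RNA, a difference of -0.27 from the 3 controls (SE 0.20, adjusted p = 0.693 in limma). The next brightest, 1438560_x_at and 1415867_at, were flat as well, at -0.31 and 0.12. Probe set 1415868_at had instead 7.12 and 7.67 in the induced-labelled RNP-IPs, 3.63 and 3.26 in the uninduced-labelled ones and 3.38 in total RNA. Its 3 controls were all near background, here meaning a log2 signal under 5, and both induced-labelled RNP-IPs were clearly above it. The measured difference was 3.97 (SE 0.22, adjusted p = 0.0702), and since the controls lie near background their true level may be lower than measured. A weaker pattern of the same kind came from 1430034_at, with 6.60 and 7.27 in the induced-labelled RNP-IPs, 5.32 and 4.17 in the uninduced-labelled ones and 5.75 in total RNA. It was called higher at 1.85 (adjusted p = 0.388), and its groups did not overlap. Of the last pair of probe sets, 1456082_x_at differed by 0.18 and 1456572_x_at was under log2 4 on all arrays. The suffix _x_at marks probe sets that may also pair with other sequences, and 1 of the 3 brightest probe sets of Cct4, 1415867_at, is without it. Where these probe sets lie on the Cct4 transcripts was not analysed here.

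**Figure D3:**
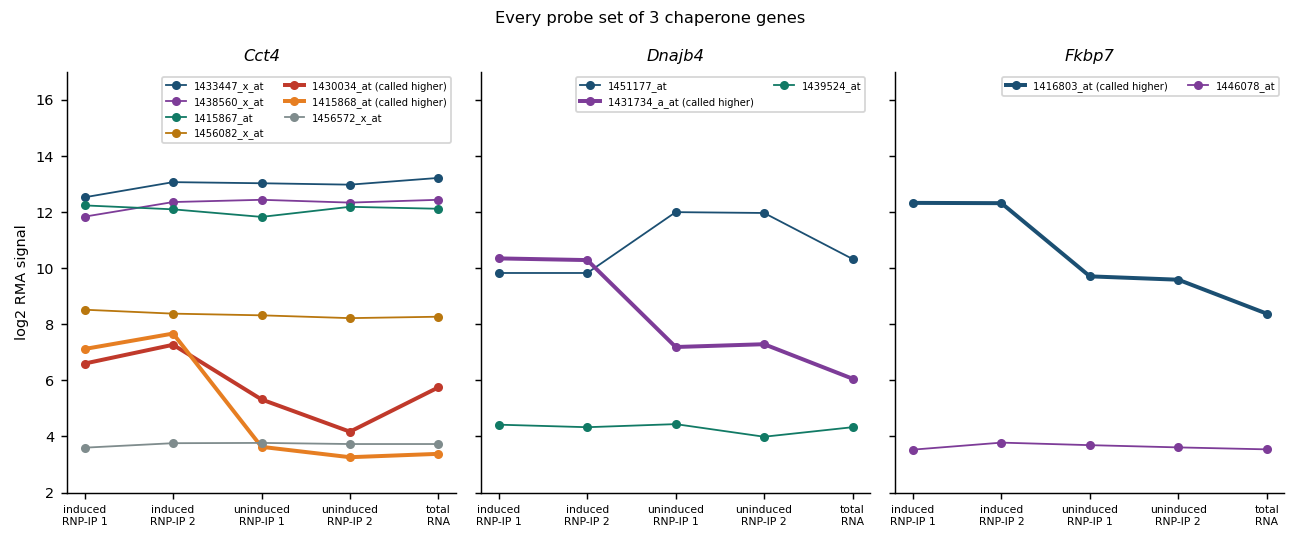
Log2 RMA signal (vertical axis) of every probe set of Cct4, Dnajb4 and Fkbp7 on the 5 arrays (horizontal axis). Lines only join the values of 1 probe set, and thick lines are probe sets called higher in the induced-labelled RNP-IPs than in the 3 controls. The 3 brightest probe sets of Cct4 stay between 11.83 and 13.22, while a pair of weak ones is higher in the induced-labelled RNP-IPs than in every control. The 2 bright probe sets of Dnajb4 run in opposite directions.

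Dnajb4, a cytosolic J-domain partner of HSP70, gave opposite and well separated answers from its 2 bright probe sets. On 1451177_at the log2 signals were 9.83 and 9.83 in the induced-labelled RNP-IPs, 12.00 and 11.97 in the uninduced-labelled ones and 10.33 in total RNA. On 1431734_a_at they were 10.35 and 10.29 in the induced-labelled RNP-IPs, 7.19 and 7.29 in the uninduced-labelled ones and 6.06 in total RNA. On both probe sets the replicates lay far closer to each other than the groups did. Near-equal replicates were not particular to Dnajb4. The replicate SD was 0 for Hsp90aa1 in the induced-labelled RNP-IPs and for Hspb8 in both kinds of RNP-IP. The first Dnajb4 probe set, 1451177_at, was lower in the induced-labelled RNP-IPs than in the uninduced-labelled ones by a called -2.15 (SE 0.04, adjusted p = 0.118 in limma). The second, 1431734_a_at, was higher by a called 3.08 (adjusted p = 0.118). Against all 3 controls the first gave -1.60 and missed the limit (adjusted p = 0.510), since total RNA lay near the induced-labelled RNP-IPs, while the second was called higher at 3.47 (adjusted p = 0.133). The uninduced-labelled RNP-IPs were above total RNA on both, by 1.65 (adjusted p = 0.156, called) and by 1.19 (adjusted p = 0.166, under 3-fold). Relative to total RNA, the induced-labelled RNP-IPs were at -0.50 on the first (adjusted p = 0.134, not called) and at 4.26 on the second (adjusted p = 0.0912). The suffix _a_at is given to probe sets that match several transcripts of 1 gene, and which transcripts each of the 2 detects was not analysed here. The remaining probe set, 1439524_at, was near background on all arrays.

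**Figure D4:**
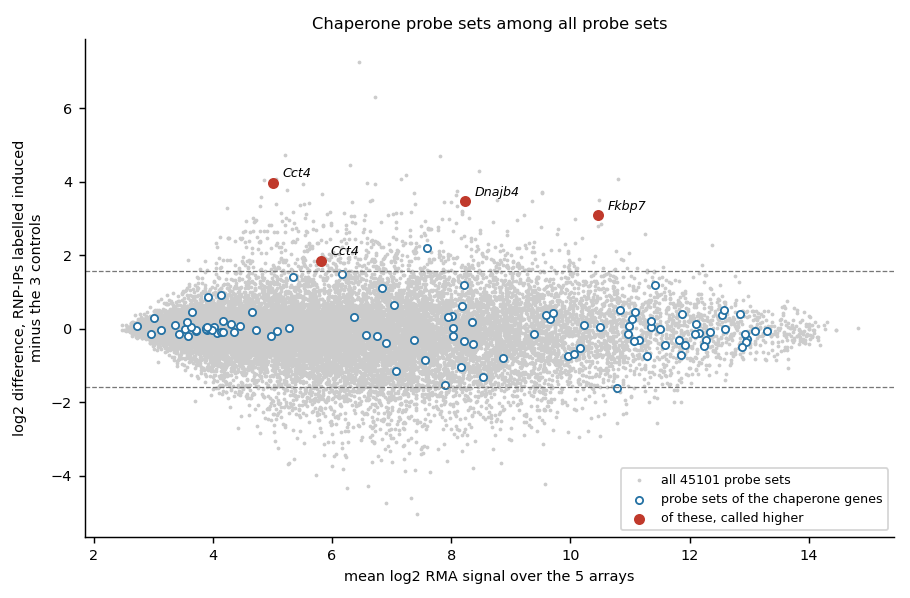
Log2 difference between the induced-labelled RNP-IPs and the 3 controls (vertical axis) against the mean log2 RMA signal over the 5 arrays (horizontal axis), for all probe sets (grey) and the 105 probe sets of the chaperone genes (open circles). Dashed lines mark a 3-fold difference. The 4 filled points are the chaperone probe sets called higher, at 3.97 and 1.85 for Cct4, 3.47 for Dnajb4 and 3.10 for Fkbp7.

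Counted by probe set, 4 of 105 were called higher in the induced-labelled RNP-IPs than in the 3 controls (2 of Cct4, 1 of Dnajb4 and 1 of Fkbp7) and 0 lower. Over all 34958 probe sets annotated to 1 gene the shares were 1.32% and 1.98%. Of these 4 probe sets 3 were not the brightest of their gene.

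No probe set of the other J-domain genes outside the ER was called against the 3 controls. Dnaja2, a cochaperone of HSC70, had 12.25 and 12.01 in the induced-labelled RNP-IPs, 10.71 and 11.50 in the uninduced-labelled ones and 10.63 in total RNA. Both induced-labelled RNP-IPs were above all 3 controls, with a difference of 1.18 (SE 0.32, adjusted p = 0.333 in limma), which is over 2-fold but under 3-fold. Its probe set 1417182_at went the other way, at -0.84, and 1417183_at gave 2.19 with overlapping groups (9.79 and 8.03 in the induced-labelled RNP-IPs, 5.22 and 8.25 in the uninduced-labelled ones, 6.68 in total RNA). Dnajb2, a J-domain protein that binds ubiquitin, was the reverse of Dnaja2 on its brightest probe set. It had 6.52 and 6.26 in the induced-labelled RNP-IPs, 6.97 and 8.18 in the uninduced-labelled ones and 7.44 in total RNA, a difference of -1.14 (adjusted p = 0.460). Dnajc5, the cysteine string protein of vesicle membranes, had 9.11 and 9.50 in the induced-labelled RNP-IPs, 8.85 and 8.75 in the uninduced-labelled ones and 10.75 in total RNA. All 4 RNP-IPs were below total RNA, the uninduced-labelled ones by a called -1.95 (SE 0.21, adjusted p = 0.209) and the induced-labelled ones by -1.44 (adjusted p = 0.176). A second Dnajc5 probe set, 1436179_a_at, was also called lower in both kinds of RNP-IP than in total RNA, at -2.26 for the uninduced-labelled ones and -1.70 for the induced-labelled ones, with all 4 RNP-IP signals near background. Dnajb1, the main stress-inducible HSP40, was at -0.68 with overlapping groups (adjusted p = 0.685). Dnajb6, a suppressor of protein aggregation, was at 0.27, and its RNP-IPs lay between 11.14 and 11.23, while its dimmer probe set 1434035_at was not called and its groups overlapped (adjusted p = 0.663). Dnaja1, a farnesylated HSP40, was uneven across its probe sets, and its 1460179_at was called higher in the uninduced-labelled RNP-IPs than in total RNA, at 1.65 (adjusted p = 0.499), just inside the limit, while its brightest probe set gave 1.09.

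No probe set of the HSP70 and HSP110 genes of the cytosol, microsomes and mitochondria was called against the 3 controls, though probe sets of the same gene differed for Hspa14 and Hspa13. Hspa8, the constitutive HSC70, lay between 13.17 and 13.57 on all arrays, and differed from the 3 controls by -0.06. Hspa14, a ribosome-associated HSP70, had 7.90 and 8.15 in the induced-labelled RNP-IPs, 8.40 and 8.37 in the uninduced-labelled ones and 8.28 in total RNA. Both induced-labelled RNP-IPs were the lowest, at a difference of -0.33 (SE 0.10, adjusted p = 0.367 in limma). Its probe set 1439826_at ran the other way, with 6.03 and 6.37 in the induced-labelled RNP-IPs, 4.62 and 5.01 in the uninduced-labelled ones and 4.72 in total RNA. There both induced-labelled RNP-IPs were above all 3 controls, by 1.41 (SE 0.18, adjusted p = 0.129), which is over 2-fold but under 3-fold. On 1448586_at the groups of Hspa14 overlapped, at 0.36. Hspa13, an HSP70-like ATPase of microsomes, had 7.05 and 8.03 in the induced-labelled RNP-IPs, 8.72 and 8.05 in the uninduced-labelled ones and 8.96 in total RNA. The gap between its groups was 0.02 at the closest, and the difference of -1.04 was not called (adjusted p = 0.571). Its probe set 1453172_at gave 0.66 instead, with 7.36 and 7.50 in the induced-labelled RNP-IPs, 6.07 and 6.86 in the uninduced-labelled ones and 7.39 in total RNA (adjusted p = 0.686). A dimmer one, 1429502_at, gave 0.91 (adjusted p = 0.256), with all 5 arrays near background. Hspa4 and Hsph1, nucleotide exchange factors of the HSP110 family, were at -0.29 and -0.07. In the mitochondrial set, Hspa9 (mortalin) and Hspe1 (HSP10) differed by -0.13 and -0.35, and Hspd1 (HSP60) by 0.41 with wide overlap. On 1418504_at Hspa9 had 10.89 and 10.79 in the induced-labelled RNP-IPs, 11.50 and 12.54 in the uninduced-labelled ones and 10.72 in total RNA, which is -1.17 between the 2 kinds of RNP-IP (adjusted p = 0.522).

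Binding motifs of heat shock factors were looked for in the promoters, because these factors are known to act on many chaperone genes. The motif searched was GAANNTTCNNGAA or its reverse complement TTCNNGAANNTTC, on either strand, from 250 bases before to 50 after the RefSeq start of the gene on build GRCm38.p6. It was present for 4 of the 32 members with a RefSeq promoter (12.5%), against 179 of 27025 genes (0.662%). The 4 matches are printed in windows of 30 bases, read along the strand of the gene, with the matching bases in capitals.
Hspd1, chr1:55088055-55088084, minus strand: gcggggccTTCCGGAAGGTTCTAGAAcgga
Hspe1, chr1:55088051-55088080, plus strand: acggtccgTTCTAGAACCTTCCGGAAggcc
Hsph1, chr5:149636279-149636308, minus strand: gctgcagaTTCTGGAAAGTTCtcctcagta
Dnajb6, chr5:29735844-29735873, plus strand: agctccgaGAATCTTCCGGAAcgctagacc
Hspd1 and Hspe1 are divergent neighbours, and their 18 capital bases are the same stretch read from both strands, so these are 3 places in the genome. Within this stretch the motif matches more than once, in overlap. These matches are descriptions of the sequence. The 4 genes were not called in any of the 4 comparisons on their representative probe sets, and Fkbp7, Cct4 and Dnajb4 are not among them.

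HSP90 and its cochaperones held the members with the widest spread between replicates. Hsp90aa1, the inducible cytosolic HSP90, was even, at 12.58 and 12.58 in the induced-labelled RNP-IPs, 12.43 and 12.58 in the uninduced-labelled ones and 12.77 in total RNA. Its dimmer probe set 1437497_a_at gave -1.30 with overlapping groups (SE 0.78, adjusted p = 0.683). Stip1, the HOP adaptor that links HSP70 and HSP90, had 8.13 and 6.91 in the induced-labelled RNP-IPs, 3.98 and 7.78 in the uninduced-labelled ones and 7.43 in total RNA. Its spread between replicates was larger than its difference from the 3 controls, 1.12 (SE 1.42, adjusted p = 0.802 in limma). Fkbp4 (FKBP52), an immunophilin of steroid receptor complexes, had 7.21 and 5.73 in the induced-labelled RNP-IPs, 5.25 and 7.74 in the uninduced-labelled ones and 6.93 in total RNA, and was at -0.17.

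In both of these genes induced 2 and uninduced 1, the arrays of low Gapdh control signal, were the lowest of the 5. The same held for 24 of the 105 chaperone probe sets, from 18 genes, and in 3 of them the gap to the other arrays was over 1 on the log2 scale. Among probe sets with a mean over log2 6 it held for 20 of 69 chaperone probe sets, against 12.6% of all those annotated to 1 gene. The widest gap was on Cct3 probe set 1449645_s_at, with 7.28 and 3.29 in the induced-labelled RNP-IPs, 3.02 and 6.15 in the uninduced-labelled ones and 6.64 in total RNA. On 1426645_at Hsp90aa1 had 9.58 and 7.21 in the induced-labelled RNP-IPs, 7.34 and 10.26 in the uninduced-labelled ones and 9.93 in total RNA, unlike its brightest probe set. The low arrays are 1 of each label, and this pattern widens the spread within both groups. Its part in the missing calls of these genes was not tested. Without these 2 arrays Fkbp7 was still the single gene called higher against the controls and 0 genes were called lower, a comparison chosen after the data were seen.

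**Figure D5:**
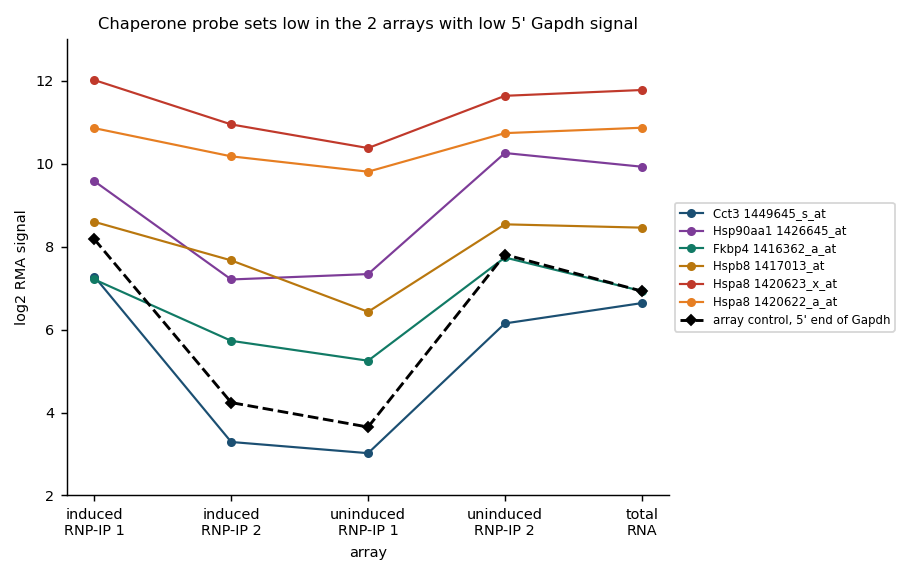
Log2 RMA signal (vertical axis) on the 5 arrays (horizontal axis) of the 6 chaperone probe sets with the widest gap between the other 3 arrays and the pair of induced 2 and uninduced 1, with the control probes at the 5' end of Gapdh (dashed). Lines only join the values of 1 probe set. The dashed line drops to 4.24 and 3.65 in induced 2 and uninduced 1, and Cct3 1449645_s_at to 3.29 and 3.02.

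Little was measured of the small heat shock proteins and the heat shock factors. Hspb1 (HSP25), a small chaperone of actin filaments, was between 4.70 and 4.79, and Hsf2, a heat shock factor active in development, between 3.79 and 3.94, so both were near background on all arrays. Hspb8 (HSP22), the partner of Bag3, differed from the 3 controls by 0.01 on its brightest probe set, at 8.03 in both induced-labelled RNP-IPs and 8.06 in total RNA. Its probe set 1417013_at had 8.60 and 7.67 in the induced-labelled RNP-IPs, 6.43 and 8.54 in the uninduced-labelled ones and 8.46 in total RNA, another case of the pair of low arrays. Bag3, a cochaperone that directs clients to autophagy, had 9.62 and 8.25 in the induced-labelled RNP-IPs, 6.77 and 8.33 in the uninduced-labelled ones and 8.15 in total RNA. The groups of Bag3 overlapped and its difference of 1.18 was not called (SE 0.71, adjusted p = 0.683 in limma).

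Of 102 further chaperone and cochaperone genes, among them prefoldins, other J-domain proteins, BAG and FKBP proteins and ER folding enzymes, 96 were measured. Against the 3 controls 4 of them were called higher in the induced-labelled RNP-IPs and 3 lower, against 1.32% and 2.36% of all genes, with a median of 0.04. Fkbp1b, an FKBP that binds ryanodine receptors, had 8.60 and 9.05 in the induced-labelled RNP-IPs, 6.78 and 5.54 in the uninduced-labelled ones and 5.44 in total RNA, a difference of 2.91 (adjusted p = 0.193 in limma). It was 1 of 9 other FKBP genes measured and the single one called. Hsbp1, a small protein that binds the trimer of Hsf1, was higher by 1.82 (adjusted p = 0.152), with no overlap between 10.55 and 10.79 in the induced-labelled RNP-IPs and 8.64, 9.29 and 8.62 in the controls. Bag4, a BAG domain cochaperone, was higher by 1.61 (adjusted p = 0.249). The J-domain genes went both ways, with Dnajc12 higher by 1.86 (adjusted p = 0.110), and Dnajb14 (-2.28, adjusted p = 0.373), Dnajc3 (-2.22, adjusted p = 0.249) and Dnajc2 (-1.98, adjusted p = 0.338) lower. Dnajc3 is the P58IPK cochaperone of BiP, Dnajc2 a ribosome-associated partner of Hspa14, and Dnajb14 an ER membrane J-protein. Each of these further genes was read on its brightest probe set alone. Dnajc3 had 5 probe sets, Dnajc2 had 4, Bag4 had 3, and Dnajb14 and Hsbp1 had 2 each. Their dimmer probe sets are not described here and may run another way, as for Cct4 and Dnajb4. All 10 genes of prefoldin and other CCT helpers and all 10 further ER folding genes missed the call, with medians of 0.26 and 0.29.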

How the data were processed

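The authors amplified RNP-IP and total RNA by two-cycle labelling, hybridized 5 arrays, normalized them by RMA (version not given in the sources used here) and deposited log2 values for 45101 probe sets. They ran from 2.32 to 14.86 and were used as deposited. The annotation table gave 1 gene for 34958 probe sets, several for 932 and none for 9211. RefSeq tables of GRCm38.p6 gave promoters.

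Groups were compared on R 4.3.3 using the package limma 3.58.1 (eBayes after lmFit, with Benjamini-Hochberg adjustment over all probe sets), tested on simulated data. The comparison with 3 controls, and the call at 3-fold and an adjusted p under 0.5, follow the study's methods. The other comparisons came from a fit with 3 groups. The chaperone genes and the lists of further chaperone and marker genes were chosen with earlier results of these data known. All 40 genes could be named, in full when called in any comparison, as were all probe sets of Cct4 and Dnajb4. Others were chosen for their range. A planned ranking of genes by likeness to Cct4 was not run, because 5 arrays are too few. The number of arrays limits the precision. Alternatives changed the scaling, the filter, the probe set of a gene, the thresholds, the replicate block and the arrays used.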

Additional observations from a re-analysis of the deposited data

How the results depend on the processing

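Of 112 alternative counts of called chaperone genes 80 stayed within 1.5 times their value or were equal. The share of all genes called under each alternative, including those with an array left out, is not given here. These counts can therefore not be set against a general rate. At an adjusted p under 0.05 every count was 0. When the most changed probe set stood for a gene, Cct4 (3.97) and Dnajb4 (3.47) joined Fkbp7, so 3 genes were higher in the induced-labelled RNP-IPs against the 3 controls, against the uninduced-labelled ones (0 lower) and against total RNA (2 lower), and 2 were lower in the uninduced-labelled RNP-IPs than in total RNA. With the median over probe sets Cct4 and Dnajb4 were both at 0.12, and Fkbp7 at 1.57 lost its call, leaving 0 genes higher or lower among RNP-IPs, and 1 higher and 0 lower for the uninduced-labelled RNP-IPs against total RNA. With _x_at and _s_at probe sets passed over, an alternative chosen after seeing the data, Cct4 was at 0.12 and no count changed. A limit of 2-fold gave 2 higher and 1 lower against the 3 controls, 2 higher against the uninduced-labelled RNP-IPs, 2 lower for the uninduced-labelled RNP-IPs against total RNA, and 3 higher and 4 lower for the induced-labelled ones against total RNA. Dnajb4 became the 1 gene lower against the controls with arrays centred on the median, the brightest probe sets alone, an intensity trend, or the uninduced-labelled RNP-IPs as sole controls (-2.15).

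Leaving out 1 array in turn, the induced-labelled RNP-IPs against the uninduced-labelled ones gave 1 to 2 genes higher (2 without uninduced 2, which added Stip1) and 1 to 2 lower (2 without uninduced 1, which added Dnajb2). The uninduced-labelled RNP-IPs against total RNA gave 2 to 4 higher (4 without uninduced 1, which added Cct8 and Dnajc7) and 1 to 2 lower (2 without uninduced 2, which added Stip1), and the induced-labelled ones against total RNA gave 0 to 2 lower (2 without induced 2, Dnajc5 and Hspa13). An arm left with 1 array is assumed to vary like the others. The replicate block gave 1 gene higher and 1 lower among RNP-IPs, as did the crossed pairing, tried because same-numbered replicates deviated from their group means with a correlation of -0.50 over all probe sets. Whether equal numbers mark paired arrays is not stated in the sources used here, and this correlation cannot settle it. Only the median over probe sets and an adjusted p under 0.05 removed the Fkbp7 call against the 3 controls or the uninduced-labelled RNP-IPs. Against total RNA only the adjusted p under 0.05 removed it. Signals near background limit Hspb1, Hsf2 and the weak probe sets of Cct4.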
